A study of Rattus norvegicus and Bos taurus with 6 samples.

Results

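Complement component genes were followed through all 6 single-nucleus RNA-seq libraries of the series, 5 from rat fat and 1 from cow fat. The 9 genes, of 63342 gene symbols in all files together, were C1qa, C1qb and C1qc, C1s, C3, Cfb, C6, C7 and Cd55, each matched by its symbol in either letter case. The genes were taken by name and not by their values. Every library listed 8 of the 9. C7 was not listed in the 10x Genomics file, Cfb was not listed in the rat Parse files, and C1QC was not listed in the cow file. The rat tissues came from male Dahl salt-sensitive rats of the strain SS/HsdMcwiCrl, with no treatment and a disease label of normal, and the age and the number of animals behind a library are not given in the sources used here. They were mesenteric perivascular adipose tissue (mesPVAT), measured once with the 10x Genomics droplet kit and once with the Parse kit, and 3 further depots measured with the Parse kit, namely retroperitoneal (RP) fat, the PVAT of the thoracic aorta (taPVAT) and brown adipose tissue (BAT) from below the scapula. The names mesPVAT and RP fat of the Parse libraries are those of their labels. The libraries so labelled had medians of 304 and 197 genes per nucleus. The study's text puts RP fat above mesPVAT in this measure, the reverse of the labelled files, so each comparison that names either library depends on its label. The cow tissue was subcutaneous white adipose tissue (WAT) of the flank of lactating Holstein cows. Each group was 1 library without replicate, so no test between groups was made, and the 95% intervals given cover counting error only.

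Complement is a cascade of blood and tissue proteins that marks microbes and dying cells for uptake and can perforate membranes. In the classical pathway, C1q binds a target, and the serine proteases C1r and C1s that travel with it cut C4 and C2. Both the classical and the alternative pathway, the latter through complement factor B (Cfb) and factor D, lead to cleavage of C3, the central protein of the cascade. C6 and C7 then join C5b on the way to the membrane attack complex, and Cd55, a protein held on the cell surface, takes apart the enzymes that cut C3. Macrophages are a known source of C1q, fibroblast-like stromal cells of C1s and C3, and factor D, also called adipsin, was first known as a product of adipocytes.

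In the GRCr8 assembly of RefSeq, the 3 C1q chains lie side by side on the reverse strand of chromosome 5, C1qb at chr5:154402276-154407827, C1qc at chr5:154410845-154414208 and C1qa at chr5:154417086-154419933, and together they span 17658 bases. C6 at chr2:55573596-55648857 and C7 at chr2:55815687-55892605 lie 166829 bases apart. C3 lies at chr9:2174412-2201339, C1s at chr4:159116549-159128736 and Cd55 at chr13:44409574-44438913. The neighbours C2 (chr20:3944722-3975006) and Cfb (chr20:3975271-3981138) are separated by 264 bases, and they are named differently by the files. The identifier that carries the name Cfb in the 10x file carries the name C2 in the rat Parse files. Under that identifier the level was 95.4 counts per 1000000 (CPM, the UMIs of a gene per 1000000 UMIs of a library, where a UMI stands for 1 captured RNA molecule) in the 10x library and, under the name C2, 67.4 CPM in taPVAT, 52.1 CPM in RP fat, 42.9 CPM in Parse mesPVAT and 26.7 CPM in BAT. Which of both genes these UMIs belong to cannot be told from the counts, in the 10x library as in the Parse libraries. No rat Parse value is therefore given for Cfb, and the 10x values stand under the name in that file. The promoters of C1qa and C1qb, from 250 bases before to 50 bases after the RefSeq start in GRCr8, are shown because C1qa differed most of the members between the mesPVAT libraries and because both windows hold the letters GGAAGT, the core to which ETS factors such as PU.1 of macrophages bind. Capitals mark GGAAGT or its reverse complement ACTTCC, searched on both strands, and the sequences read 5′ to 3′ on the strand of the gene. C1qa (chr5:154419884-154420183, reverse strand) holds it 2 times, beginning 107 and 79 bases before the start, and C1qb (chr5:154407778-154408077, reverse strand) holds it 1 time, beginning 61 bases before the start.
C1qa: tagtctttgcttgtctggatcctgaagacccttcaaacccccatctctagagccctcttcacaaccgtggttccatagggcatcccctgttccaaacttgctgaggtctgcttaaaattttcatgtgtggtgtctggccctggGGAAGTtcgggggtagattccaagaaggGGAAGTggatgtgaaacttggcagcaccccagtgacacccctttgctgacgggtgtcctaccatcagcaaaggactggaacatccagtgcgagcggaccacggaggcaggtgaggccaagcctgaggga
C1qb: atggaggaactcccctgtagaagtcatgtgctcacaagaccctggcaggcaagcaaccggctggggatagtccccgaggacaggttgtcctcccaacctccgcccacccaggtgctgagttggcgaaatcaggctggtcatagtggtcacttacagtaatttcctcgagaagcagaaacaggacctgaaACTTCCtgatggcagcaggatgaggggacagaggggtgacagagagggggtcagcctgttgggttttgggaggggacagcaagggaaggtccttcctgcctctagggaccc
Of all 33469 RefSeq promoters of this length, 22.6% hold GGAAGT and 3.72% hold it 2 or more times, so a match is common and is only a description. GGAAGT was not in the windows of C3, C6 or Cd55, and no promoter was available to search for C1qc, C1s, C7 and Cfb. The Cd55 window (chr13:44438052-44438351) lay within the span of the gene given above. TTGCNNAA, letters bound by C/EBP factors, was in the windows of C3 and C6 and in 10.6% of all promoters.

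The libraries differed widely in depth. The 10x library held 5887 nuclei with a median of 161 UMIs, the Parse libraries labelled mesPVAT and RP fat 3028 and 2805 nuclei with 346 and 213 UMIs, taPVAT 2708 nuclei with 1246, BAT 2699 nuclei with 1706 and cow WAT 2297 nuclei with 3530. No barcode was shared between libraries, and doublets were not removed. Levels of Ucp1, the uncoupling protein that defines brown fat, were 1782 CPM in taPVAT and 2072 CPM in BAT, between 63.4 and 89.9 CPM in the Parse libraries of white rat fat, 0.808 CPM in the 10x library and 0.654 CPM in cow WAT. The mesothelial marker Msln was at 565.6 CPM in the 10x library and at most 13.9 CPM in the rat Parse libraries. Because levels are sums over nuclei, fewer cells of a type and less RNA per cell cannot be told apart. At least 1 UMI of any of the 9 genes was found in 35.6% of nuclei in cow WAT, 22.0% in taPVAT, 9.84% in Parse mesPVAT, 9.11% in BAT, 8.61% in the 10x library and 7.34% in RP fat. In these data a nucleus counts as adipocyte, stromal progenitor (ASPC), endothelial, immune or mesothelial when it holds Plin1, Pdgfra, Ptprb, Ptprc or Msln alone. Where it is said so, the class was taken instead from the largest sum over a list of 8 markers, as far as a file listed them. Of the markers, Itgam was not listed in the rat Parse files, and ADIPOQ, PPARG, MSLN and MUC16 were not listed in the cow file. Some mesothelial markers were missing from each rat file too. Both kinds of class are names for marker content. None of the 5 single markers was held by 4526 nuclei of the 10x library, 538 of taPVAT and 769 of cow WAT, and several of them by 62, 515 and 539 nuclei, with median depths of 231, 2586 and 10548 UMIs, deeper than the library in each case. Without MSLN, the cow classes used the other single markers only.

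**Figure D1:**
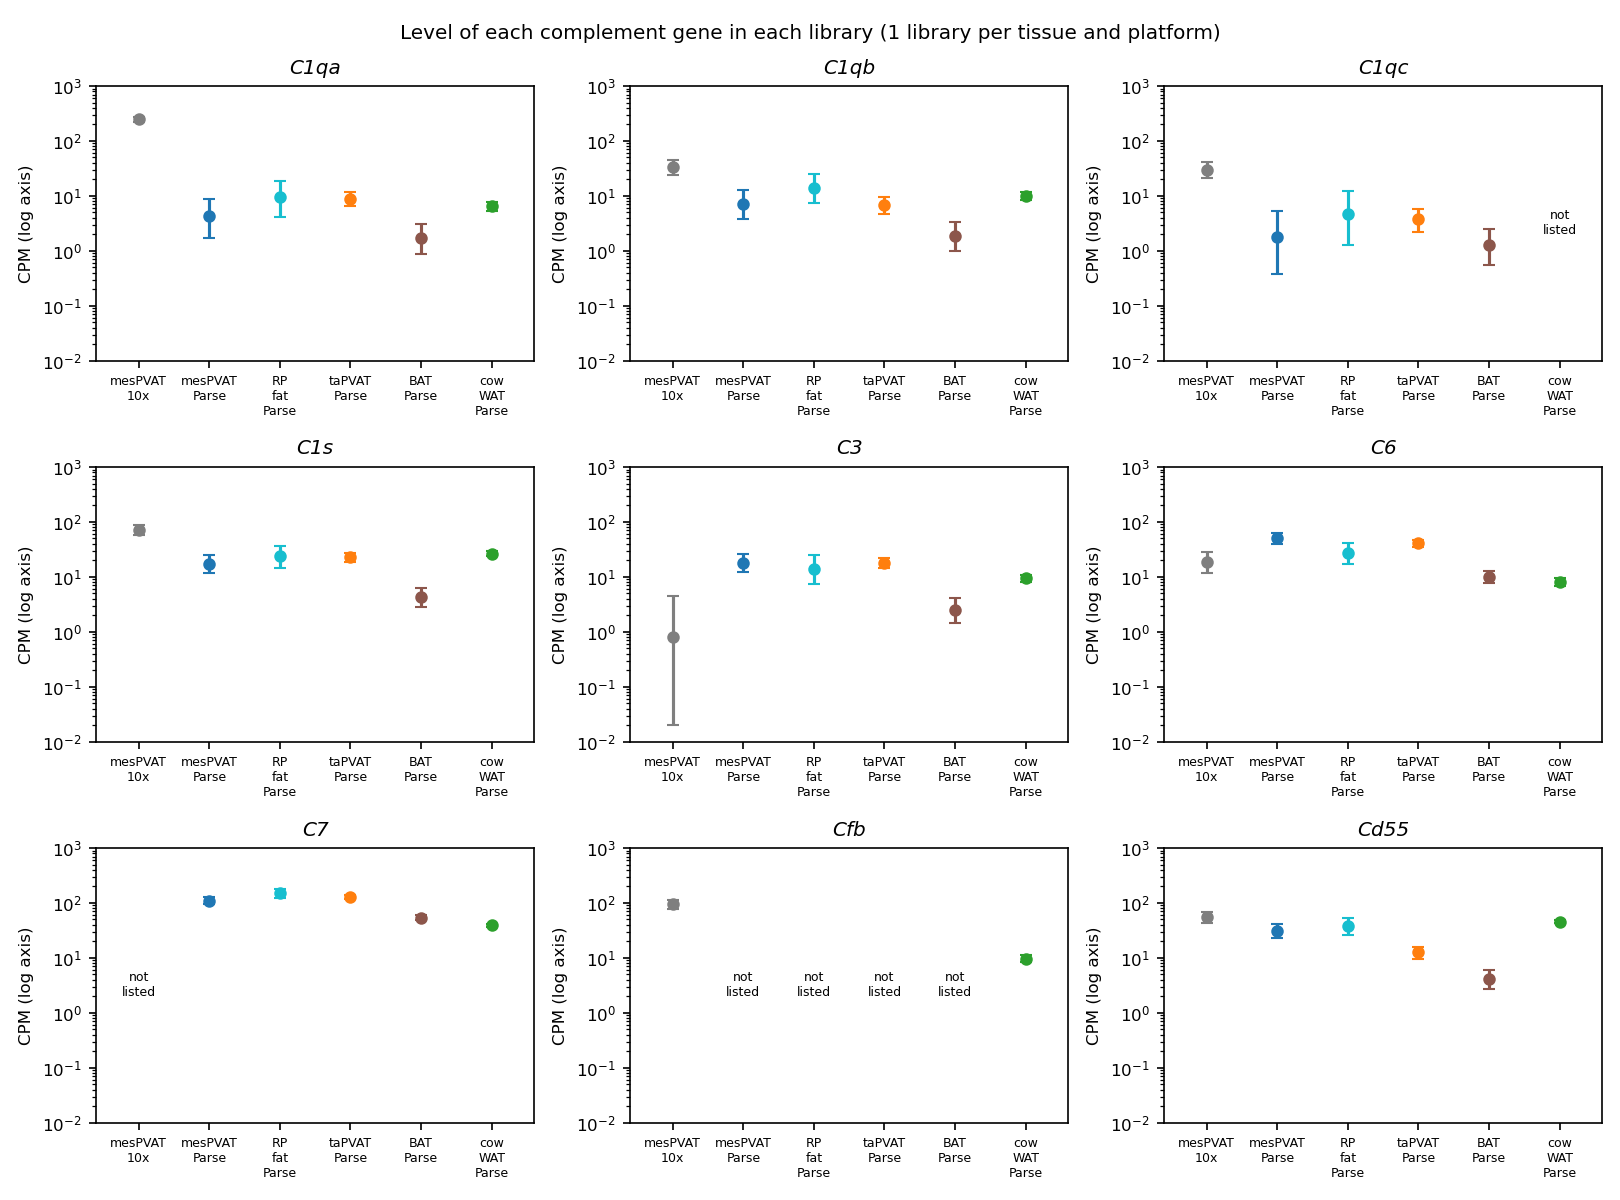
Level of each complement gene in each library, in CPM on a log axis, with points for the summed value and bars for the exact Poisson 95% interval (counting error only, 1 library per group). C1qa stood at 249 CPM in the 10x library and below 10 CPM in all 5 Parse libraries, and BAT held the lowest rat value of every gene but C3 and Cfb.

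C1q, the recognition molecule of the classical pathway, is built from the chains A, B and C. C1qa was at 249 CPM (222 to 278) in the 10x library, 9.46 CPM (4.09 to 18.6) in RP fat, 8.82 CPM (6.44 to 11.8) in taPVAT, 6.42 CPM (5.26 to 7.75) in cow WAT, 4.23 CPM (1.70 to 8.71) in Parse mesPVAT and 1.74 CPM (0.869 to 3.12) in BAT. The 10x interval lay above all others, and the BAT interval lay below those of RP fat and taPVAT and overlapped that of mesPVAT. C1qb was at 33.1 CPM (23.8 to 44.9) in the 10x library, 14.2 CPM (7.34 to 24.8) in RP fat, 9.98 CPM (8.53 to 11.6) in cow WAT, 7.24 CPM (3.74 to 12.7) in mesPVAT, 6.86 CPM (4.78 to 9.54) in taPVAT and 1.90 CPM (0.981 to 3.32) in BAT. BAT was below every other library for this chain, while mesPVAT and taPVAT overlapped RP fat. C1qc was at 29.9 CPM (21.1 to 41.2) in the 10x library, 4.73 CPM (1.29 to 12.1) in RP fat, 3.73 CPM (2.24 to 5.82) in taPVAT, 1.81 CPM (0.373 to 5.29) in mesPVAT and 1.27 CPM (0.547 to 2.49) in BAT. In the rat Parse libraries each of these C1qc values rested on 3 to 19 UMIs, and their intervals overlapped throughout. The balance of the chains also differed, with 308 UMIs of C1qa beside 41 of C1qb in the 10x library, 45 beside 35 in taPVAT and 108 beside 168 in cow WAT.

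Nuclei that held C1qa were 214 of the 10x library (3.64%, 3.17 to 4.15), 38 of taPVAT (1.40%) and 90 of cow WAT (3.92%). With each nucleus thinned to 200 UMIs, the 10x share was 2.72% (2.06 to 3.50) over the 2099 nuclei left and the shares in the other libraries were at most 0.305%. By class, C1qa was higher in immune than in adipocyte nuclei in the 3 libraries with most of its UMIs. In the 10x library it was at 865 CPM (484 to 1427) in nuclei with Ptprc, the leukocyte common antigen, of which 10 of 49 held it, and at 119.6 CPM (74.9 to 181) in nuclei with Plin1, of which 18 of 620 held it (2.90%), at median depths of 265 and 249 UMIs. With the marker lists the contrast in the 10x library was 2059 CPM (1593 to 2620) in 113 immune nuclei against 91.6 CPM (66.3 to 123) in 1800 adipocyte nuclei. C1qa to C1qb stood at 66 to 17 UMIs in these immune nuclei and at 43 to 4 UMIs in the adipocyte nuclei. The level in adipocyte nuclei, a class not known for making C1q, was above the whole-library level of every Parse library, and its cause was not tested. Most C1qa of the 10x library, 80.5% of its UMIs, was in nuclei with none of the 5 markers, which held 68.9% of all UMIs. By the lists, 54.9% was in nuclei of no class, which held 40.7% of all UMIs, and 21.4% in immune nuclei, which held 2.59%. In taPVAT C1qa was at 60.7 CPM (26.2 to 119.7) in Ptprc nuclei and 2.91 CPM (1.17 to 6.00) in Plin1 nuclei, and C1qb at 75.9 CPM (36.4 to 139.6) and 2.08 CPM (0.675 to 4.85). In cow WAT C1QA was at 23.4 CPM (15.6 to 33.9) and C1QB at 40.2 CPM (29.6 to 53.3) in PTPRC nuclei, where PLIN1 nuclei had 4.67 CPM (1.27 to 12.0) of C1QA. In all 3 libraries the intervals of the immune and adipocyte nuclei did not overlap.

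Read from the positive side, 63 of 90 C1QA-positive cow nuclei also held PTPRC (70.0%, 59.4 to 79.2), against 24.5% of the negative nuclei, at median depths of 9318.5 and 3422 UMIs. In taPVAT 14 of 38 C1qa-positive nuclei held Ptprc (36.8%), against 12.5% of the others, and in the 10x library 10 of 214 (4.67%), against 0.776%. The C1qa-positive nuclei of taPVAT also held Pdgfra more often, 11 of 38 (28.9%) against 6.40%. In Parse mesPVAT and RP fat none of the 7 and 8 C1qa-positive nuclei held Ptprc, and 3 of each held Plin1. The other chains differed in Parse mesPVAT, where 4 of 11 C1qb-positive nuclei held Ptprc (36.4%, 10.9 to 69.2) against 5.77% of the others. Plin1 was also held by 4 of these 11, and 2 of 3 C1qc-positive nuclei held Ptprc. In RP fat none of 12 C1qb-positive and 4 C1qc-positive nuclei held Ptprc. A deeper nucleus holds more genes of every kind, so these shares move with depth, and the part of depth in them was not tested. Nuclei with 2 or more C1q chains were 20 of the 257 with any chain in the 10x library (7.78%), 5 of 81 in taPVAT (6.17%), 1 of 27 in BAT, none of 21 and 24 in the white rat Parse libraries and 35 of 182 in cow WAT (19.2%), where only the A and B chains were listed. C1qa was present in 12 of 35 C1qb-positive 10x nuclei (34.3%) against 3.45% of the rest. Among the cow nuclei with C1QA, 35 of 90 held C1QB (38.9%) against 4.17% of the rest.

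In the rat libraries markers of the macrophage list led the genes that shared nuclei with C1q. The 8 genes with the largest ratio of CPM between C1q-positive and other nuclei were led in the 10x library by Cd163, the scavenger receptor for haemoglobin (15.2-fold), F13a1, a coagulation factor chain made by macrophages (14.6-fold), and Mrc1, the mannose receptor (11.9-fold), with Hdac9, Lgmn, Selenop, Rbpj and Mctp1 after them. In taPVAT they were F13a1 (8.95-fold), Cd163 (8.33-fold), Kcnk13, Rbpj, Mrc1, Pirb, Adgre1 and Klra2. In BAT F13a1 was at 31.6-fold and Cd163 at 20.6-fold, over 35 and 25 UMIs held by 18.5% and 33.3% of the 27 positive nuclei. In cow WAT the genes were PLTP (4.07-fold), C5AR1, the receptor for the fragment C5a (3.85-fold), BRB (3.66-fold), F13A1 (3.42-fold), FGD2, PILRA, SIGLEC15 and LYVE1, with neither CD163 nor MRC1 among them. F13A1 was among the 8 in all 4 libraries examined, and CD163, MRC1 and RBPJ in the 3 rat libraries. With at least 50 UMIs required, F13A1 stayed in the lists of taPVAT and cow WAT only. CD163 and MRC1 then left the BAT list, and RBPJ stayed in all 3 rat lists.

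C1s, the protease that C1q sets off, had the same order of rat libraries as C1qa. It was at 71.1 CPM (57.0 to 87.6) in the 10x library, 26.4 CPM (24.0 to 29.0) in cow WAT, 23.7 CPM (14.5 to 36.5) in RP fat, 22.9 CPM (19.0 to 27.5) in taPVAT, 17.5 CPM (11.7 to 25.1) in mesPVAT and 4.27 CPM (2.82 to 6.22) in BAT. The 10x library was above and BAT below all others, with no overlap, while the remaining 4 libraries overlapped each other. By class C1s was highest in stromal and mesothelial nuclei. The marker lists put it in the 10x library at 209 CPM (139 to 302) in ASPC nuclei and 29.8 CPM (16.3 to 50.0) in adipocyte nuclei, and nuclei with Msln had 190.4 CPM (119 to 288). In taPVAT the lists gave 136 CPM (100.3 to 180.3) in ASPC nuclei against 12.5 CPM (9.19 to 16.5) in adipocyte nuclei. Cow WAT had 52.7 CPM (47.1 to 58.7) in ASPC nuclei, 15.9 CPM (12.1 to 20.5) in adipocyte nuclei and 9.60 CPM (6.09 to 14.4) in immune nuclei. PDGFRA was found in 178 of 251 C1S-positive cow nuclei (70.9%, 64.9 to 76.5) against 17.4% of the others, at median depths of 9687 and 3154.5 UMIs.

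Cfb, the protease precursor of the alternative pathway, was read under that name in the 10x and cow files only. Whether the 10x UMIs belong to Cfb or to C2 cannot be told, so for 10x Cfb is only the name in the file. Its level was 95.4 CPM (78.9 to 114) over 118 UMIs in the 10x library and 9.75 CPM (8.31 to 11.4) over 164 UMIs in cow WAT. Msln nuclei of the 10x library held 225 CPM (147 to 329.7) and Plin1 nuclei 70.7 CPM (37.6 to 121), so that mesothelial nuclei were above adipocyte nuclei with no overlap. In cow WAT the lists gave 19.4 CPM (16.1 to 23.2) in ASPC nuclei and 5.03 CPM (3.03 to 7.86) in adipocyte nuclei. Of the 113 Cfb-positive nuclei in the 10x library, 25 held Msln (22.1%, 14.9 to 30.9) against 9.08% of the others, and 14 held Plin1 (12.4%) against 11.3%. The identifier named C2 in the rat Parse files went with Msln in Parse mesPVAT too, in 6 of 69 positive nuclei (8.70%, 3.26 to 18.0) against 0.473% of the others, and with Plin1 in 23 of 69 (33.3%) against 21.7%. In taPVAT, where Msln was at 2.55 CPM, 221 of 279 nuclei positive for this identifier held Plin1 (79.2%, 74.0 to 83.8) against 58.2% of the others, at median depths of 2415 and 1148 UMIs. C1s and Cfb shared nuclei in the 10x library, where 10 of 81 C1s-positive nuclei held Cfb (12.3%, 6.08 to 21.5) against 1.77% of the rest.

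C3, the protein on which all routes of activation meet, was nearly absent from the 10x library. Its levels were 18.2 CPM (14.7 to 22.3) in taPVAT, 18.1 CPM (12.2 to 25.9) in mesPVAT, 14.2 CPM (7.34 to 24.8) in RP fat, 9.45 CPM (8.04 to 11.0) in cow WAT, 2.53 CPM (1.45 to 4.11) in BAT and 0.808 CPM (0.0205 to 4.50) in the 10x library, where a single UMI was read. The 3 upper rat values overlapped, BAT lay below them, and the 10x interval overlapped that of BAT alone. In taPVAT C3 was highest in immune nuclei, with 266 CPM (185 to 369.5) in nuclei with Ptprc, of which 23 of 154 held it, and 1.25 CPM in nuclei with Plin1. The marker lists gave 241 CPM (175 to 325) in immune, 31.2 CPM (15.6 to 55.8) in ASPC and 5.71 CPM (3.58 to 8.65) in adipocyte nuclei of taPVAT. Of the 69 C3-positive nuclei in taPVAT, 43 held Ptprc (62.3%, 49.8 to 73.7) against 11.5% of the others, although their median depth was lower, 980 against 1251 UMIs. In BAT 7 of 11 C3-positive nuclei held Ptprc (63.6%, 30.8 to 89.1) against 5.47% of the others, here at the higher median depth, 2978 against 1704 UMIs. Plin1 was held by 8 of these 11 (72.7%) against 69.1%, and in taPVAT by 24 of 69 (34.8%) against 61.0%. In cow WAT the list values were 12.4 CPM (9.82 to 15.6) in ASPC, 10.4 CPM (6.76 to 15.4) in immune and 9.80 CPM (6.90 to 13.5) in adipocyte nuclei, all overlapping. By single markers they were 12.6 CPM (7.03 to 20.7) in PTPRC, 10.3 CPM (5.14 to 18.4) in PDGFRA and 2.34 CPM (0.283 to 8.44) in PLIN1 nuclei. Of the 115 C3-positive cow nuclei, 66 held PTPRC (57.4%) against 24.6% of the others and 67 held PDGFRA (58.3%) against 21.4%, at median depths of 11483 and 3380.5 UMIs. The genes that shared nuclei with C3 in taPVAT included Napsa (36.7-fold), Cd300a, an inhibitory receptor of myeloid cells (19.7-fold), Itgal, the integrin chain of LFA-1 (19.3-fold), Lilrb4 (18.7-fold), Myo1g, Dnah14 and P2ry10. None of those named was among the 8 genes of C1q in taPVAT. In cow WAT the genes were led by others, among them CEMIP (3.45-fold) and KLB, the coreceptor of FGF21 (3.43-fold).

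C6, the first protein to join C5b, was found with the adipocyte marker Plin1 in 3 of the rat Parse libraries, in nuclei deeper than the others. It was at 50.1 CPM (39.9 to 62.1) in mesPVAT, 40.8 CPM (35.4 to 46.7) in taPVAT, 27.2 CPM (17.2 to 40.8) in RP fat, 18.6 CPM (11.8 to 27.9) in the 10x library, 9.97 CPM (7.66 to 12.8) in BAT and 8.02 CPM (6.73 to 9.50) in cow WAT. The library labelled mesPVAT and taPVAT overlapped, and both lay above the 10x library and BAT. Plin1, the perilipin of the adipocyte lipid droplet, was present in 134 of 166 C6-positive nuclei of taPVAT (80.7%, 73.9 to 86.4) against 59.0% of the others, at median depths of 2569 and 1193 UMIs. The corresponding counts were 48 of 56 in BAT (85.7%) against 68.8%, and 41 of 72 in mesPVAT (56.9%, 44.7 to 68.6) against 21.1%. Median depths were 2807 and 1688 UMIs in BAT and 817.5 and 342 UMIs in mesPVAT, and the part of depth in these shares was not tested. In RP fat 3 of 22 held Plin1 (13.6%, 2.91 to 34.9) against 9.56%, an interval that includes the share of the others. By level, Plin1 nuclei of mesPVAT held 93.5 CPM (65.5 to 129) of C6, those of taPVAT 42.8 CPM (35.0 to 52.0) and those of BAT 11.9 CPM (8.53 to 16.1). In taPVAT, however, the list of immune markers held a higher level, 146 CPM (95.3 to 214) over 26 UMIs, than the adipocyte list, 40.5 CPM (34.4 to 47.4) over 156 UMIs. Adipocyte nuclei of taPVAT held 75.0% of its C6 UMIs and 75.5% of all its UMIs. In BAT adipocyte nuclei by the lists held 53 of 63 C6 UMIs and 80.6% of all UMIs, at 10.4 CPM beside 9.97 CPM for the library. In cow WAT the list values of C6 were 10.7 CPM (8.25 to 13.6) in ASPC, 7.93 CPM (4.78 to 12.4) in immune and 5.30 CPM (3.24 to 8.18) in adipocyte nuclei, where the ASPC interval lay above that of adipocyte nuclei.

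C7, which follows C6 in the complex, was highest in stromal progenitor nuclei. Library levels were 150.2 CPM (125 to 179) in RP fat, 129 CPM (119 to 139) in taPVAT, 109.9 CPM (94.5 to 127) in mesPVAT, 54.0 CPM (48.4 to 60.0) in BAT and 39.1 CPM (36.2 to 42.2) in cow WAT. The 3 upper intervals overlapped and lay above BAT. Positive nuclei were 265 of taPVAT (9.79%, 8.69 to 11.0), 127 of BAT (4.71%), 137 of mesPVAT (4.52%), 108 of RP fat (3.85%) and 255 of cow WAT (11.1%). Thinning to 200 UMIs changed that order, to 2.93% in RP fat, 2.77% in taPVAT, 1.92% in mesPVAT, 1.00% in BAT and 0.566% in cow WAT. In nuclei with Pdgfra, the PDGF receptor of adipose progenitors, C7 was at 1370 CPM (1152 to 1618) in taPVAT, where 38 of 79 such nuclei held it, and at 1186 CPM (844 to 1622) in BAT, where 12 of 23 did. Plin1 nuclei held 43.3 CPM (35.3 to 52.4) and 14.2 CPM (10.5 to 18.8) in the same libraries. The other libraries followed with 636 CPM (377 to 1005) in Pdgfra nuclei of mesPVAT, 338.3 CPM (180.1 to 578.4) in RP fat and 48.7 CPM (36.4 to 63.8) in cow WAT. Pdgfra was found in 80 of 265 C7-positive nuclei of taPVAT (30.2%) against 4.18% of the others, in 28 of 127 of BAT (22.0%) against 1.56%, and in 140 of 255 of cow WAT (54.9%) against 19.3%. Median depths of C7-positive and other nuclei were 1551 and 1212 UMIs in taPVAT, 1962 and 1694 in BAT and 8216 and 3186.5 in cow WAT. In BAT 1 nucleus held 46 of the 341 UMIs, the level without it was 46.7 CPM, and the sublibraries of BAT stood at 32.6 and 75.4 CPM.

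Pdgfra, the marker of the ASPC class, was among the 8 genes that shared nuclei with C7 in BAT. These were Igfbp3, a binding protein of insulin-like growth factors (16.6-fold), Medag (13.2-fold), Itgbl1 (13.1-fold), Pdgfra (13.04-fold), the collagen receptor Ddr2 (12.7-fold), Tnnt3, Ms4a4c-ps1 and Mnda. In taPVAT the genes were Ms4a4c-ps1 (10.3-fold), Gfpt2 (8.19-fold), Sned1 (8.08-fold), Dkk2, an inhibitor of Wnt signalling, Loxl1, Spon1, Boc and Ror2, so that Ms4a4c-ps1 alone stood in both lists of 8. Cow WAT was led by APOD, apolipoprotein D (4.06-fold), and its list held CROCC2, PTGER3 and FGF10, a growth factor of stromal cells (2.96-fold). C7 and C1s shared nuclei in every library that listed C7. In Parse mesPVAT 6 of 28 C1s-positive nuclei held C7 (21.4%, 8.30 to 41.0), against 4.37% of the rest. In RP fat 4 of 20 did, with an interval from 5.73% to 43.7%, against 3.73% of the rest. C7 was present in 36 of 108 C1s-positive nuclei of taPVAT (33.3%) against 8.81% of the rest, in 10 of 26 of BAT (38.5%) against 4.38%, and in 88 of 251 of cow WAT (35.1%) against 8.16%. Median depths of C1s-positive and other nuclei were 649.5 and 344 UMIs in mesPVAT, 353.5 and 213 in RP fat and 1979 and 1224.5 in taPVAT. In BAT they were 3316.5 and 1701, and in cow WAT 9687 and 3154.5. Cow nuclei with C1S also held C3 (15.1% against 3.76%), CFB (14.7% against 3.37%) and C6 (13.9% against 3.96%) more often. The part of depth in these shares was not tested.

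Cd55, the decay-accelerating factor, was at 54.9 CPM (42.7 to 69.7) in the 10x library, 45.8 CPM (42.6 to 49.2) in cow WAT, 37.9 CPM (25.9 to 53.4) in RP fat, 31.4 CPM (23.4 to 41.2) in mesPVAT, 12.5 CPM (9.66 to 16.0) in taPVAT and 4.12 CPM (2.69 to 6.03) in BAT. The brown depots were below the white ones with no overlap, and BAT below taPVAT. Most genes were lower in the brown Parse libraries, 52.1% by 2-fold or more in taPVAT against mesPVAT and 56.7% in BAT against RP fat. The Cd55 ratio was 0.400 in the first comparison, near the median of 0.455 over all genes, and 0.109 in the second, where that median was 0.320. Its class differed between libraries. In cow WAT the marker lists gave 178 CPM (161 to 196) in immune nuclei, 30.5 CPM (25.2 to 36.6) in adipocyte nuclei and 20.5 CPM (17.1 to 24.4) in ASPC nuclei, and 188 of 248 CD55-positive nuclei held PTPRC (75.8%, 70.0 to 81.0) against 20.3% of the others. Median depths of these CD55-positive nuclei and of the others were 9680 and 3157 UMIs. In taPVAT the lists gave 96.3 CPM (66.7 to 135) in ASPC nuclei and 5.61 CPM (0.142 to 31.3) in immune nuclei over 1 UMI, the opposite order. By single markers taPVAT had 39.1 CPM in endothelial nuclei over 11 UMIs, 29.6 CPM in ASPC nuclei over 3 and 7.59 CPM in immune nuclei over 1. Nuclei of taPVAT with none of the 5 markers had 42.5 CPM over 17 UMIs. By the lists BAT held 47.0 CPM (9.69 to 137) in immune nuclei over 3 UMIs and 28.6 CPM (9.30 to 66.8) in ASPC nuclei over 5 UMIs, which overlapped. Ptprc was found in 6 of 24 Cd55-positive nuclei of BAT (25.0%, 9.77 to 46.7) against 5.53% of the others, and in 9 of 43 of Parse mesPVAT (20.9%, 10.0 to 36.0) against 5.66%. By the lists the 10x library also had Cd55 in ASPC nuclei, at 187 CPM (121 to 275) against 21.3 CPM (10.2 to 39.2) in adipocyte nuclei. One cow nucleus held 51 of the 771 UMIs. The cow level fell to 31.8 CPM within the limits that the study set on UMIs, genes and mitochondrial share, and was 30.9 CPM as a mean over nuclei.

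**Figure D2:**
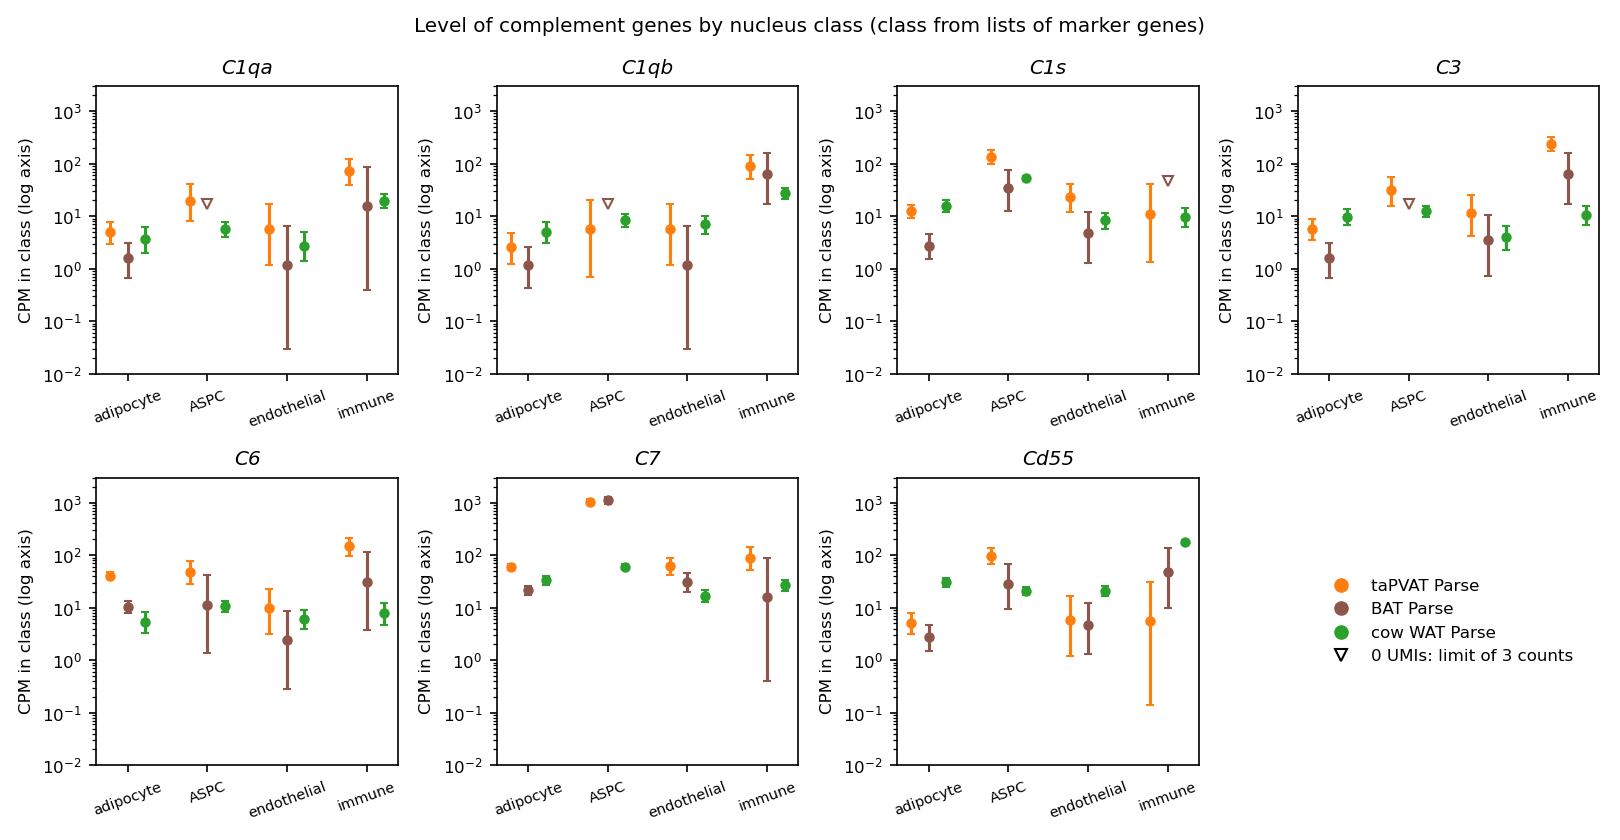
Level of 7 complement genes by nucleus class in taPVAT, BAT and cow WAT, in CPM on a log axis, with classes taken from the lists of 8 markers, points for the summed value of a class, bars for the exact Poisson 95% interval and open triangles for the limit of 3 counts where no UMI was read. Not every marker was listed in each file, so the lists differed between rat and cow. C7 stood at 1040 CPM in ASPC nuclei of taPVAT and 1105 CPM in those of BAT but at 60.6 CPM in those of cow WAT, and Cd55 was highest in immune nuclei of cow WAT and in ASPC nuclei of taPVAT.

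Against the other nuclei of the same library, the share of members at least 2-fold higher can be read beside that of all genes with at least 10 UMIs. Given here are mesothelial and adipocyte nuclei of the 10x library and ASPC, immune and adipocyte nuclei of taPVAT and cow WAT. Endothelial nuclei and the classes of the other libraries are not reported here. In the 10x library mesothelial nuclei were higher in C1s and in the identifier named Cfb there, 2 of 7 members, where 11.0% of all genes were. Adipocyte nuclei of that library were higher in C6, 1 of 7, where 6.06% were. ASPC nuclei of taPVAT were higher in C1qa, C1qc, C1s, C3, C7 and Cd55, 6 of 8, against 24.0% of all genes. Few UMIs stood behind C1qa (2), C1qc (1), Cd55 (3) and C3 (6) there. With the marker lists 4 members were higher, without C1qc and C3, and the share of all genes was not taken. Immune nuclei of taPVAT were higher in C1qa, C1qb, C1qc, C3 and C6, 5 of 8, against 29.0%, and adipocyte nuclei in none of 8, against 2.33%. The median ratio of the members was 3.07 in ASPC, 5.23 in immune and 0.197 in adipocyte nuclei of taPVAT, where all genes had medians of 2.10, 1.95 and 0.747. In cow WAT ASPC nuclei were higher in C1S and CFB, 2 of 8, against 8.12% of all genes, immune nuclei in C1QA, C1QB and CD55, 3 of 8, against 15.7%, and adipocyte nuclei in none of 8, against 8.07%. There the medians of the members were near those of all genes in ASPC nuclei (1.14 and 1.03) and immune nuclei (1.15 and 1.19) and lower in adipocyte nuclei (0.403 and 1.01).

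TaPVAT and BAT, the 2 depots with high Ucp1, were the deeper rat libraries. All 8 listed members were at least 2-fold higher in taPVAT, where 8.52% of the 23157 genes tested were higher and 2.48% lower by that fold. The ratios were 7.20 (4.21 to 13.1) for C3, 5.37 (3.51 to 8.49) for C1s, 5.07 (2.58 to 10.9) for C1qa, 4.09 (3.07 to 5.51) for C6, 3.61 (1.83 to 7.64) for C1qb, 3.05 (1.91 to 5.01) for Cd55, 2.94 (1.23 to 7.77) for C1qc and 2.39 (2.09 to 2.73) for C7. No interval of a ratio included 1, and the median over the members was 3.85 against 1.09 over all genes. Markers of stromal and immune nuclei moved in the same direction. Pdgfra was at 56.9 CPM in taPVAT and 14.7 CPM in BAT, Ptprc at 151 and 49.9 CPM, and the summed lists, with all listed markers detected in both libraries, were at 1071 and 378 CPM for ASPC, 494 and 189 CPM for immune cells and 302 and 146 CPM for macrophages. Plin1 differed little, at 2435 and 2501 CPM. The part of this difference in makeup in the ratios of the members was not tested.

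**Figure D3:**
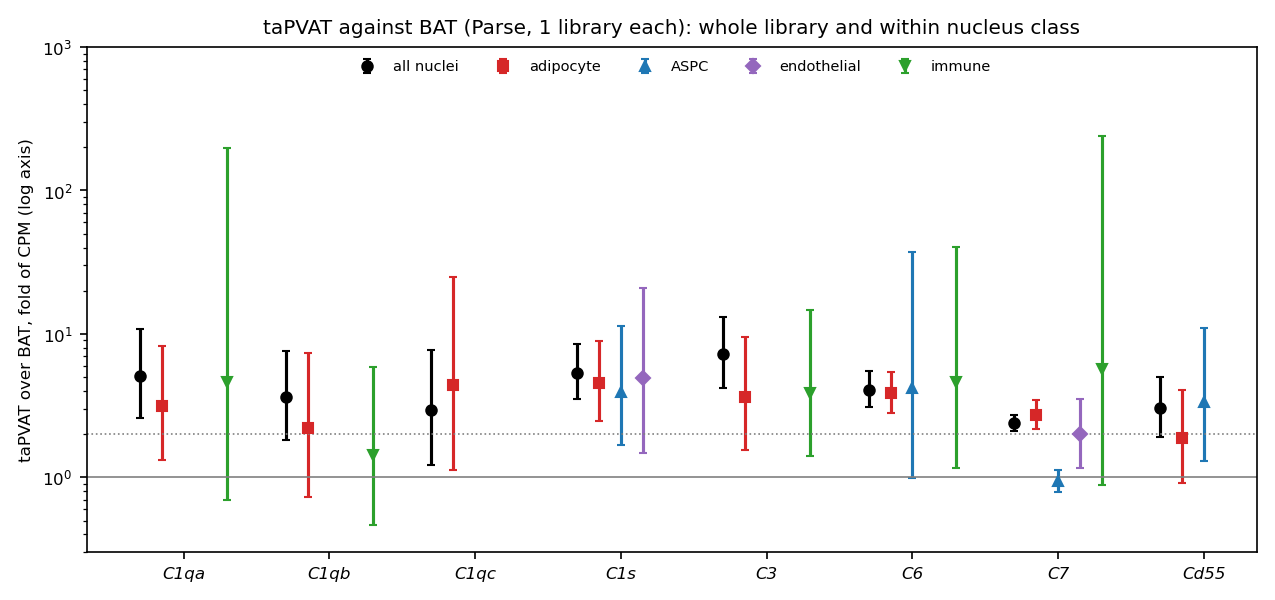
Ratio of taPVAT to BAT in CPM for the 8 listed complement genes, on a log axis (1 library each). Points stand for all nuclei and for adipocyte, ASPC, endothelial and immune nuclei by the marker lists. Class points are shown for genes with at least 10 UMIs in both libraries together and at least 1 in each. Bars are exact 95% intervals of the ratio. Over all nuclei, all 8 genes were higher in taPVAT, from 2.39-fold for C7 to 7.20-fold for C3.

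Within nuclei of the same class by the marker lists, an alternative added after the data were seen, C7 in ASPC nuclei was at 1105 CPM in BAT and 1040 CPM in taPVAT, with a ratio of taPVAT to BAT of 0.941 (0.788 to 1.13) over 193 and 367 UMIs. The lists counted 266 ASPC nuclei in taPVAT and 113 in BAT. In these nuclei C1s and Cd55 were higher in taPVAT, at ratios of 3.96 (1.69 to 11.3) and 3.36 (1.31 to 11.0). In adipocyte nuclei the ratios were 4.53 (2.46 to 8.90) for C1s, 3.89 (2.83 to 5.42) for C6, 3.14 (1.31 to 8.29) for C1qa and 2.74 (2.17 to 3.48) for C7, and those of C1qb at 2.20 (0.726 to 7.38) and Cd55 at 1.89 (0.908 to 4.04) had intervals that included 1. In immune nuclei C3 was at 241 CPM in taPVAT and 62.7 CPM in BAT, a ratio of 3.85 (1.40 to 14.8), and C6 had a ratio of 4.66 (1.17 to 40.5) over 26 and 2 UMIs. The intervals of C1qb at 1.43 (0.462 to 5.89), C1qa at 4.66 (0.700 to 198) and C7 at 5.73 (0.891 to 240.4) included 1. C7 thus had a ratio near 1 in ASPC nuclei and above 2 in adipocyte nuclei of the same 2 libraries. One BAT nucleus held 46 of the 341 C7 UMIs of BAT. It was an ASPC or adipocyte nucleus by the lists, so 1 of these ratios leans on it, which its interval does not cover. By single markers the C7 ratios were 1.15 (0.804 to 1.69) in ASPC nuclei and 3.05 (2.15 to 4.37) in adipocyte nuclei.

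Among the Parse libraries of white rat fat, mesPVAT against RP fat asks how a perivascular and a non-perivascular white depot compare. None of 7 members was at least 2-fold higher in mesPVAT, where 6.44% of genes were, and 1 was lower, C1qa, where 13.1% were. C1qa rested on 7 and 8 UMIs, and its ratio of 0.446 had an interval of 0.138 to 1.41 that included 1. C6 was higher in mesPVAT at a ratio of 1.84 (1.15 to 3.06), and C7 lower at 0.731 (0.580 to 0.925). The median ratio of the members was 0.740, and that of all genes 0.816. For taPVAT against mesPVAT, both perivascular, 2 of 8 members were higher, where 8.53% of genes were, and 1 was lower, where 52.1% were. The 2 were C1qa at 2.09 (0.935 to 5.49) and C1qc at 2.06 (0.606 to 10.9), both with intervals that included 1, and the lower one was Cd55 at 0.400 (0.273 to 0.588). The median of the members was 1.09 against 0.455 for all genes, and C3 (1.01), C7 (1.17) and C6 (0.814) had intervals that included 1. For BAT against RP fat, brown against white, all 8 members were lower by 2-fold or more, where 56.7% of genes were. The median ratio was 0.182 for the members and 0.320 for all genes, and the ratios ran from 0.109 (0.0622 to 0.188) for Cd55 to 0.366 (0.224 to 0.619) for C6, with C7 at 0.359 (0.292 to 0.444). The interval of C1qc (0.268, 0.0717 to 1.21) was the only one of these 8 that included 1. These comparisons share libraries and do not stand for independent observations.

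MesPVAT was measured by 2 kits, and the members went both ways between them. Relative to the 10x library, C3 and C6 were at least 2-fold higher on Parse, 2 of 7, where 38.4% of 14690 genes were, and C1qa, C1qb, C1qc and C1s were lower, 4 of 7, where 20.6% were. The 10x level was 58.9 times the Parse level for C1qa (28.2 to 148), 16.5 times for C1qc (5.23 to 83.7), 4.57 times for C1qb (2.36 to 9.56) and 4.06 times for C1s (2.64 to 6.41). The 3 chains of C1q thus fell in one direction but by unequal amounts. The Parse level was 2.70 times the 10x level for C6 (1.68 to 4.48) and 22.4 times for C3 (3.73 to 914), where the 10x library had a single UMI, and the ratio of Cd55 was 0.571 (0.390 to 0.832). The median ratio was 0.246 for the members and 1.29 for all genes. Kit, isolation protocol, sorting, batch, genome annotation and the tissue used all differed between these libraries and cannot be told apart. The macrophage list was at 508 CPM on 10x and 371 CPM on Parse, and 7 of its 8 markers were listed and detected in each. Msln went from 565.6 to 13.9 CPM. Within the 10x library the C1qa level was 43.7 CPM (19.99 to 83.0) in the 262 nuclei with at least 500 UMIs and 289.8 CPM (257.9 to 324.6) in the 5625 shallower ones, where the macrophage list moved less, 383.7 against 533.1 CPM. C1s went the other way, 126.3 CPM in the deeper and 60.1 CPM in the shallower nuclei.

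**Figure D4:**
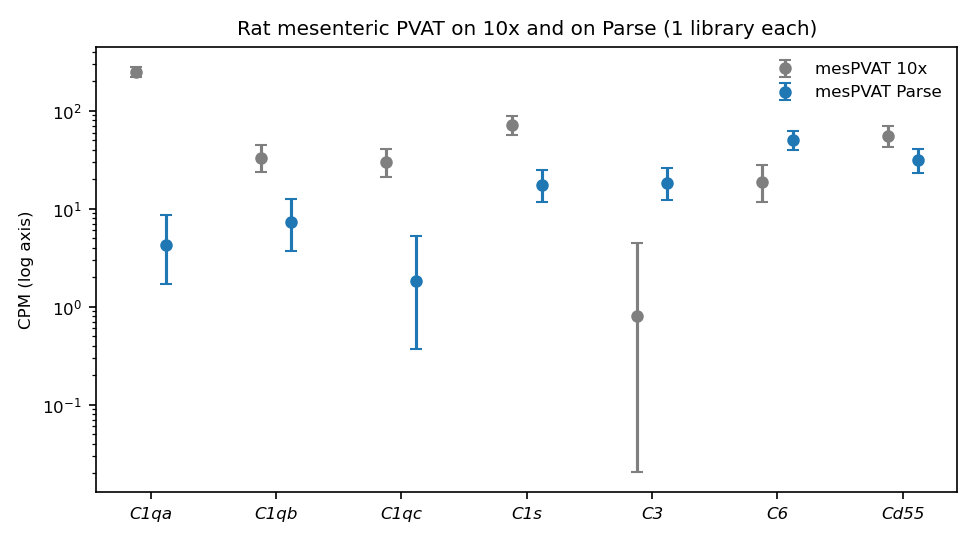
Level of the 7 complement genes listed in both mesPVAT files, in CPM on a log axis, for the 10x and the Parse library with exact Poisson 95% intervals as bars. The C1q chains and C1s were lower on Parse, and C3 and C6 were higher.

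Other complement genes were taken from a list of 43, of which 35 or 36 were listed in each file, and 30 of 36 had a UMI in the 10x library, 34 of 35 in Parse mesPVAT and 35 of 35 in each of the other 4 libraries. C4b, the substrate of C1s, was at 397.6 CPM in the 10x library, 352.5 CPM in mesPVAT, 246.1 CPM in RP fat, 782.9 CPM in taPVAT and 362.9 CPM in BAT, and its near copy C4a, with which it may share reads, at 585.8 CPM in the 10x file. C1r, which lies 6778 bases from C1s, had 96.2 CPM in the 10x library, 30.8 CPM in mesPVAT, 28.4 CPM in RP fat, 35.5 CPM in taPVAT, 10.6 CPM in BAT and 26.0 CPM in cow WAT, so that the 10x library was again highest and BAT lowest. Cfd, the factor D of adipocytes, was at 711.9 CPM in the 10x library, between 24.8 and 78.4 CPM in the rat Parse libraries and at 1.66 CPM in cow WAT. Of the regulators, Clu, clusterin, ran from 16.1 CPM in BAT to 192.4 CPM in cow WAT. Csmd1, a very long gene, was highest in RP fat at 786.7 CPM. Of the receptors, VSIG4, the C3b receptor of resident macrophages, was at 226.7 CPM in cow WAT and below 8 CPM in the rat libraries, ITGAM, a chain of complement receptor 3, at 257.9 CPM and CR2 at 96.0 CPM in cow WAT. Of the terminal components, which liver makes, 3 were low in the brown depot taPVAT, C8a at 1.76, C8b at 1.37 and C9 at 2.35 CPM, and were at 30.8, 21.3 and 23.7 CPM in RP fat, where the summed list of liver markers was at 35.5 CPM against 20.8 CPM in taPVAT. C8g, the remaining chain of C8, named after its values were seen, had the other order, with 14.7 CPM in taPVAT and 16.1 CPM in BAT against 7.098 CPM in RP fat and 10.9 CPM in Parse mesPVAT. The summed liver list rested on 30 UMIs in RP fat and 106 UMIs in taPVAT. Most genes were lower in the brown Parse libraries, 56.7% by 2-fold or more in BAT against RP fat, where the median ratio over all genes was 0.320. The part of liver RNA in the values of the terminal components was not tested. C5, the start of the terminal pathway, was higher in RP fat than in taPVAT like C8a, C8b and C9, with 49.7 CPM in RP fat, 29.6 CPM in Parse mesPVAT and at most 6.24 CPM in the other libraries. Of the lectin pathway, the scavenger collectin Colec12 ran from 68.5 CPM in BAT to 224.6 CPM in the 10x library, and the protease Masp1 was at 41.0 CPM in Parse mesPVAT and 36.7 CPM in RP fat against 8.63 CPM in taPVAT. Colec10 reached 29.6 CPM in RP fat, Colec11 29.0 CPM in Parse mesPVAT and Fcna, a ficolin of macrophages, 29.9 CPM in the 10x library. Properdin (Cfp), which holds the alternative pathway enzyme together, reached 31.5 CPM in the 10x library and was at 28.6 CPM in taPVAT and 28.5 CPM in BAT. Further regulators and receptors were Cd46, a cofactor for cleavage of C3b, from 55.6 CPM in RP fat to 117 CPM in the 10x library, Susd4, highest in RP fat at 80.4 CPM, Serping1, the C1 inhibitor, highest in the 10x library at 31.5 CPM, Cd59, an inhibitor of the attack complex, at 41.2 CPM in the 10x library and 14.0 CPM in cow WAT, Itgb2 at up to 65.5 CPM in cow WAT, C5ar2 at 37.2 CPM in the 10x library and Cd93 at up to 23.3 CPM in BAT.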

How the data were processed

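The authors made the deposited counts, which are UMIs per gene and called barcode and carry no normalization. For the Parse libraries, rat and cow reads were separated first, split-pipe then aligned and counted them against the assembly of the species (rat GRCr8, cow ARS-UCD1.3), and 2 sublibraries were joined, and for the 10x library the authors used Cell Ranger. Nuclei for 10x were sorted by DAPI and prepared with another protocol. FastQC and Scanpy are named in the submitters' processing notes. All deposited barcodes were used and doublets were kept, since no caller was run.

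UMIs of a gene were summed over nuclei and divided by the UMIs of the library or class to give CPM. Intervals are exact at 95%, Poisson for sums, binomial for shares and conditional binomial for ratios, and cover counting error only. A sum of 0 was set to the limit of 3 counts. Ratios between libraries used genes with at least 10 UMIs in both together, and ratios between a class and the other nuclei used genes with at least 10 UMIs in the library and classes with at least 50 nuclei. A gene was counted past a ratio of 2. With 1 library per group no test was made and no p-value is given. The class by lists took the list of 8 markers with most UMIs, at least 2 and without a tie, over those markers that the file listed. Thinning drew 200 or 500 UMIs per nucleus without replacement, with the seed 20. Genes sharing nuclei with C1q, C3 or C7 were the 8 with the largest ratio among those with at least 20 UMIs in positive nuclei and detection in at least 10% of them, in libraries with at least 20 positive nuclei, leaving out genes named by an identifier only. Of the other complement genes, those with 20 CPM or more in any library are named, and C8g was added. Some genes that these rules select are not reported here. The members, lists and alternatives were chosen with earlier results of these data known, and 3 alternatives were added after the values were seen. Promoters and positions are those of RefSeq in GRCr8, matched by symbol. The calls were tested on simulated Poisson counts, for genes with many UMIs and for changes larger than a ratio of 2. Calls on few UMIs, near a ratio of 2 or with UMIs gathered in 1 nucleus were not covered. Python 3.11.15, numpy 2.4.6, scipy 1.17.1, pandas 2.3.3 and matplotlib 3.10.9 were used. Total UMIs per library ran from 845316 to 16827260, so that a CPM of 1 stands for under 1 UMI in the shallowest library.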

Additional observations from a re-analysis of the deposited data

How the results depend on the processing

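No paired analysis was possible because each group had 1 library, and for the same reason no replicate could be left out. None of the ratios between libraries that were called 2-fold or more apart changed direction under another scaling or within the limits set by the study. Levels, shares and counts were not checked for direction. For mesPVAT against RP fat on Parse, the count of members higher went from 0 to 1 with a ratio of 1.5, and the count lower from 1 to 2 with a ratio of 1.5, with no minimum of UMIs and within the study's limits (at least 100 and at most 15000 UMIs, at most 4500 genes and 3% mitochondrial UMIs). Of all genes, 14.2% were higher and 33.0% lower at a ratio of 1.5. With no minimum of UMIs 15.0% were lower, and within the study's limits 16.9%. Within these limits the count higher in taPVAT against mesPVAT went from 2 to 0, where 8.40% of genes were higher. With a ratio of 4 in place of 2, the counts by class went from 2 to 0 in mesothelial and from 1 to 0 in adipocyte nuclei of the 10x library, from 6 to 2 in ASPC nuclei of taPVAT and from 2 to 0 in ASPC nuclei of cow WAT. Against the other 4 classes alone, the count in 10x adipocyte nuclei was also 0. It rose there from 2 to 3 in ASPC nuclei and from 3 to 4 in immune nuclei of cow WAT. The share of all genes was not taken for these altered class counts. A stricter ratio allows fewer calls by construction, and other causes were not tested. For 38 ratios between libraries the 2-fold call (higher, lower or neither) was compared. Scaling without mitochondrial genes and the top gene changed none of these calls, and the study's limits changed 3 of 38. Of 48 library levels, 15 moved beyond their interval as a mean over nuclei, 6 with nuclei of at least 500 UMIs and 4 within the study's limits. Of 176 class levels, 21 moved with the marker lists and 42 with a marker of at least 2 UMIs. Counting nuclei of several markers in each class moved 34. Shares of positive nuclei depend on depth, and 36 of 48 moved with thinning to 200 UMIs. Requiring 50 UMIs kept from 1 (C1q in BAT) to 7 of the 8 genes that shared nuclei with a member. Depth limits the values that rest on few UMIs, such as 3 to 12 for each C1q chain in the white rat Parse libraries, 12 for C3 in RP fat and 1 for C3 in the 10x library.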
